A study of Mus musculus with 12 samples.

Results

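The cytochrome P450 genes of families 1 to 3 were described in liver and macrophages of mice lacking both Prkch and Apoe and of mice lacking Apoe alone. Members were the probe sets assigned to exactly 1 gene symbol that begins with Cyp1, Cyp2 or Cyp3 followed directly by a letter. This gave 54 genes with 1 probe set each, of 19938 genes with such a probe set and 35557 probe sets in all. By symbol, 13 belonged to the CYP2C subfamily, 10 to CYP2D (1 of them a pseudogene), 6 each to CYP2J and CYP3A, and 5 to CYP2B. The rest came from CYP1A, CYP1B and other CYP2 subfamilies. A further 5 probe sets of these families carried several symbols and were left out.

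Cytochrome P450 enzymes are haem proteins of the endoplasmic reticulum that insert an oxygen atom into lipophilic substrates, with electrons delivered by P450 oxidoreductase and cytochrome b5. Families 1 to 3 include most of the drug-oxidising enzymes of hepatocytes, and also enzymes of steroid, retinoid, bile acid and arachidonic acid oxidation. Their transcription in liver is controlled by the aryl hydrocarbon receptor (CYP1 genes), by the nuclear receptors CAR (CYP2B and CYP2C genes) and PXR (CYP3A genes), and by HNF4A, and several mouse members differ between the sexes through growth hormone.

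The knockout carried the genotype Prkch-/-Apoe-/-, and the control, called wt in the sample titles, was Apoe-/-, so every animal lacked apolipoprotein E; Prkch encodes protein kinase C eta. All were backcrossed to C57BL/6J. Livers came from 20 week old males fed a high fat diet for 12 weeks and then re-fed, after perfusion with saline, with 2 arrays of Prkch-/-Apoe-/- and 2 of Apoe-/- mice. Thioglycolate-elicited peritoneal macrophages, taken without further stimulation, were from regular-diet females, 3 arrays for each genotype, from animals of 18, 17 and 27 weeks for replicates 1, 2 and 3. The labels call all arrays biological replicates and do not tie them to single animals, so the p-values below measure the spread between these arrays. Values are log2 probe set levels on Affymetrix Mouse Gene 1.0 ST arrays, so a difference of 1 unit is a doubling. The 2 aorta arrays, on another platform, were not used.

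Array medians lay between 5.88 and 5.93 in liver and between 6.57 and 6.77 in macrophages. The hepatocyte marker Alb lay between 14.20 and 14.27 on the liver arrays and between 4.93 and 5.28 on the macrophage arrays. The macrophage marker Adgre1 lay between 8.26 and 8.72 in liver and between 11.84 and 12.11 in macrophages. Prkch itself was at 5.93 and 5.65 in Prkch-/-Apoe-/- livers, against 6.57 and 6.87 in Apoe-/- livers (difference -0.92 ± 0.16, SE; limma adjusted p = 0.573); in macrophages it was at 9.36, 8.79 and 8.87, against 9.94, 9.86 and 9.31, and overlapped. Whether its probes lie in the deleted stretch was not tested. The macrophage arrays fell into a pair of sets by exactly identical values: knockout replicates 2 and 3 and control replicate 3 (set 2) shared at least 16075 identical probe sets in each pair, and the other 3 arrays (set 1) did not. Of the 54 P450 genes, 35 (64.8%) had 1 and the same value on all 3 arrays of set 2, against 40.1% of all probe sets, so the spread among those arrays does not measure replicate error for these genes.

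The 250 bases before the start site are shown for CYP3A and CYP2C genes on which the liver comparison turns: the neighbours Cyp3a11, Cyp3a44, Cyp3a16 and Cyp3a25, their distant relative Cyp3a13, and the adjacent pair Cyp2c38 and Cyp2c39. Sequences are from RefSeq (mouse build GRCm38.p6), 5′ to 3′ on the gene's strand. Capitals mark the nuclear receptor half-sites AGGTCA and AGTTCA, the core GCGTG bound by the aryl hydrocarbon receptor and the TATA motif TATAAA. Each was searched on both strands, and a match on the other strand is capitalised as its reverse complement. For Cyp3a25 and Cyp2c39, which have several listed starts, the first was used.
Cyp3a11 (chr5:145879855-145880104, minus strand): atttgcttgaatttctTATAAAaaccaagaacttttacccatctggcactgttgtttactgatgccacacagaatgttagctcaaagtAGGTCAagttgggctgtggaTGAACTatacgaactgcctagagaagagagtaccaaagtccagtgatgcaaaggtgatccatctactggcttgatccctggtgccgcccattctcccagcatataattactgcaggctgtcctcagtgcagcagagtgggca
Cyp3a44 (chr5:145805875-145806124, minus strand): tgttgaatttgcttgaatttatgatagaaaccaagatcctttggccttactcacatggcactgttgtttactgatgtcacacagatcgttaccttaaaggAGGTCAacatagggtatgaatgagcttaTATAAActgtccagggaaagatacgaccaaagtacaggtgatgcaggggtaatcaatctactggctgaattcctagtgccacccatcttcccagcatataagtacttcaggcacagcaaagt
Cyp3a16 (chr5:145469724-145469973, minus strand): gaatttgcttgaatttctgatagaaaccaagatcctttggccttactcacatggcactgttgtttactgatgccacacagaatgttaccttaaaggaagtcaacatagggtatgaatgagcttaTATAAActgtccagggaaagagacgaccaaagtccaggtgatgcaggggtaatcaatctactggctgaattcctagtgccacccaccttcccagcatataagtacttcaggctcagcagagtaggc
Cyp3a25 (chr5:146009619-146009868, minus strand): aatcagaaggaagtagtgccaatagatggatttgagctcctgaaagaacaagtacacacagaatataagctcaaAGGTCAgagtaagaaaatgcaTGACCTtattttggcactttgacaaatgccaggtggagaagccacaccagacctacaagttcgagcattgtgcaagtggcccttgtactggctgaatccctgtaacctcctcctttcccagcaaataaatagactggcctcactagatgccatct
Cyp3a13 (chr5:137921620-137921869, minus strand): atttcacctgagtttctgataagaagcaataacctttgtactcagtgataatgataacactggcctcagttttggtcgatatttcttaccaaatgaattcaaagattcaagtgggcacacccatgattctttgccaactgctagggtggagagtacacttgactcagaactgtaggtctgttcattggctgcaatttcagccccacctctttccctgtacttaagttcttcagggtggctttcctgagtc
Cyp2c38 (chr19:39463076-39463325, minus strand): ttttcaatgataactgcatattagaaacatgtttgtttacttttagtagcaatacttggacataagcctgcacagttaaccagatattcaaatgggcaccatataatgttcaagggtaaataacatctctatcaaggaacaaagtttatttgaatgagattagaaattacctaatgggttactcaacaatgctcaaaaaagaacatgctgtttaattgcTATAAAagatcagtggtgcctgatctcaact
Cyp2c39 (chr19:39347096-39347345, plus strand): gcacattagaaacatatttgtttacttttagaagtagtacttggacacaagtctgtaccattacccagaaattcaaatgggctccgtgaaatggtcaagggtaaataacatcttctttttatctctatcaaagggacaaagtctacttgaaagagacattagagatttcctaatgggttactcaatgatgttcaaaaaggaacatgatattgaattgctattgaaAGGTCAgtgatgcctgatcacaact

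Cyp3a16 and Cyp3a44 were 92.9% identical over their aligned promoters, Cyp3a11 and Cyp3a16 76.6%, and Cyp3a11 and Cyp3a44 72.1%. Cyp3a13 was no more than 55.8% identical to any other CYP3A member, and Cyp2c38 and Cyp2c39 were 75.9% identical. The Cyp3a11 window held 1 AGGTCA ending 157 bases before the start and 1 AGTTCA ending 137 bases before it, Cyp3a44 held 1 AGGTCA, Cyp3a25 held 2, and Cyp3a16 and Cyp3a13 held neither letter string. Over the 45 members found in the promoter table, AGGTCA was present in 14 (31.1%), against 14% of all 32851 promoters of this length, and TATAAA in 21 (46.7%), against 12.4%. AGTTCA was present in 3 members (6.67%, against 11.8%) and GCGTG in 9 (20%, against 28.2%). Members were counted with 1 start each, and the 32851 promoters with every listed start. Related members are not independent counts. Cyp2b9 and Cyp2b13 both held AGGTCA ending 133 bases before the start, and Cyp3a25 and Cyp3a57 were 88.9% identical. These motifs were chosen after the values were seen, and a match describes letters, not a binding site.

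In control liver the P450 genes were among the brightest features of the array. Of the 54, 25 had a control mean over the 90th percentile of all probe sets, 18 lay between the 30th and the 90th, and 11 lay under the 30th; 31 exceeded the array median on all 4 liver arrays. Cyp2e1, which oxidises ethanol and paracetamol, was at 13.82 and 13.87 in knockout livers, against 13.99 and 13.93 in control livers, and its control mean stood at percentile 99.9. Cyp2f2, the naphthalene-oxidising enzyme, was at 13.32 and 13.23, against 13.14 and 13.13. Both genes lay close to the top of the scale on every liver array.

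Further members at the bright end came from CYP2D, CYP2C, CYP2J and CYP3A. Cyp2d26 was at 12.89 and 12.89 in knockout livers, against 13.12 and 12.97 in controls. Cyp2c70, which makes the muricholic acids of mouse bile, was at 13.06 and 12.71, against 12.42 and 12.71. Cyp2j5, an arachidonic acid epoxygenase, was at 12.30 and 12.45, against 12.31 and 12.39, and the genotypes overlapped for it and for Cyp2c70. At the dim end stood Cyp2c65, Cyp2b13, Cyp3a57, Cyp3a16 and Cyp2j12, whose control liver means lay between 2.77 and 3.96. Female-predominant genes of adult mouse liver were among these, in livers that came from males. Of 9 such P450 genes listed, 4 were members (Cyp2b9, Cyp2b13, Cyp3a16 and Cyp3a44), and of those only Cyp3a44 passed the filter on dim genes (mean at or above the 30th percentile of all probe sets).

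**Figure D1:**
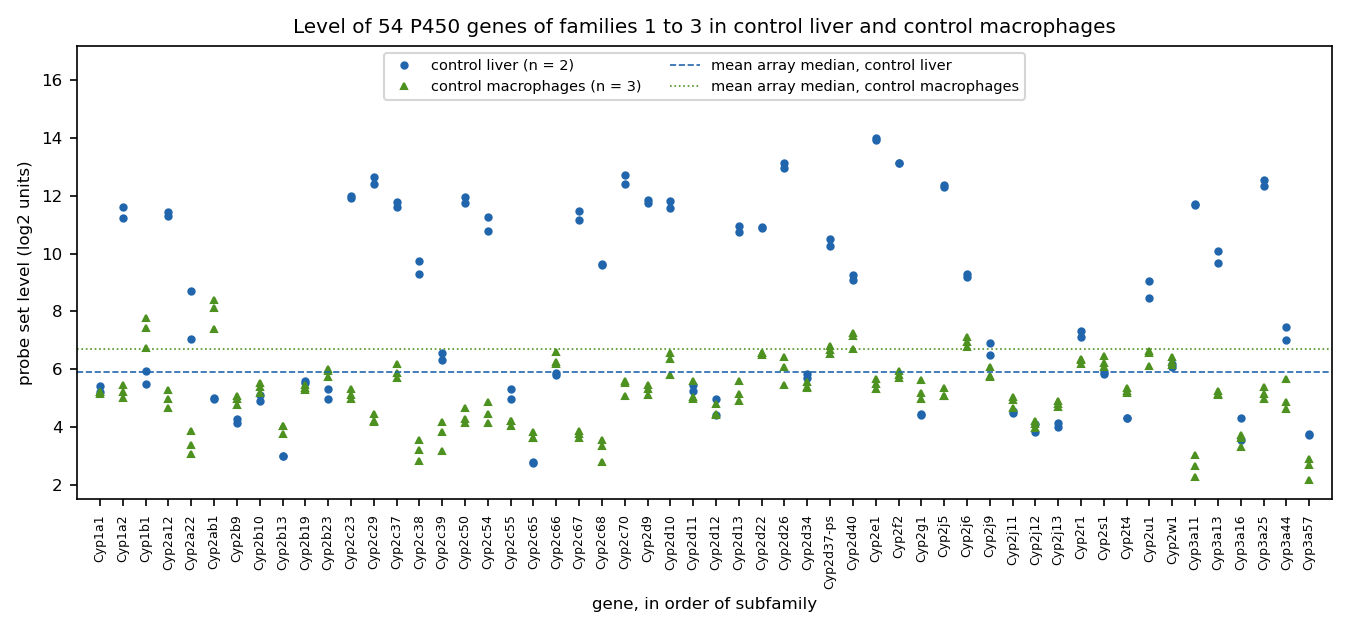
Level of each of the 54 P450 genes in control liver (2 arrays, circles) and control macrophages (3 arrays, triangles), in log2 units, in order of subfamily. Most CYP2C, CYP2D and CYP3A genes stand well above the liver array median and below the macrophage array median, while Cyp2ab1 and Cyp1b1 lie higher in macrophages.

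No P450 gene of families 1 to 3 passed the test between Prkch-/-Apoe-/- and Apoe-/- liver. Of the 43 members past the filter, 0 passed in limma, with the call set at a p under 0.05 after Benjamini-Hochberg adjustment, beside 1 of all 15942 genes tested (0.00627%), the isoprenoid enzyme gene Idi1. The smallest adjusted p of a member was 0.828, for Cyp3a11. At an unadjusted p under 0.05 there were 3 members, all lower in the knockout (Cyp2c38, Cyp3a11 and Cyp3a44; 6.98% of the 43), against 4.29% of all genes (1.54% higher and 2.75% lower). Leaving out a single array keeps 1 array in a genotype, and some of those fits also had members higher in the knockout. The share of all genes at this threshold was not counted in those fits. The 2 arrays per genotype limit the precision of every value here, and in whole liver fewer cells of a type and less RNA per cell cannot be told apart.

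Across the 43 members, 21 differences were above 0 and 22 below 0 (51.2% below, against 57.1% of all genes), with a median of -0.002 beside -0.02 over all genes tested. Single members differed more in size than the typical gene: the median size of the difference was 0.15, against 0.10 over all genes, and 9 members (20.9%, against 11.5%) differed by at least 0.25, a 1.19-fold change. In 15 members the genotypes did not overlap (34.9%, against 29.8%), 6 of them higher in the knockout (14%, against 11.8%) and 9 lower (20.9%, against 18%). The shares without overlap are close to those of all genes. With no filter, 25 of all 54 members were higher and 29 lower, with a median of -0.02.

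Brighter members had smaller differences at the median. Among the 25 members over the 90th percentile in control liver, 5 differed by at least 0.25 and the median size was 0.12. Of the 18 in the middle range 4 did, with a median size of 0.17, and of the 11 dimmest 3 did, with a median size of 0.19. The largest difference of all members, -1.20 for Cyp2c38, lay in the brightest class. Sizes by level were not computed over all genes, so the trend is not shown to be particular to the P450 genes.

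**Figure D2:**
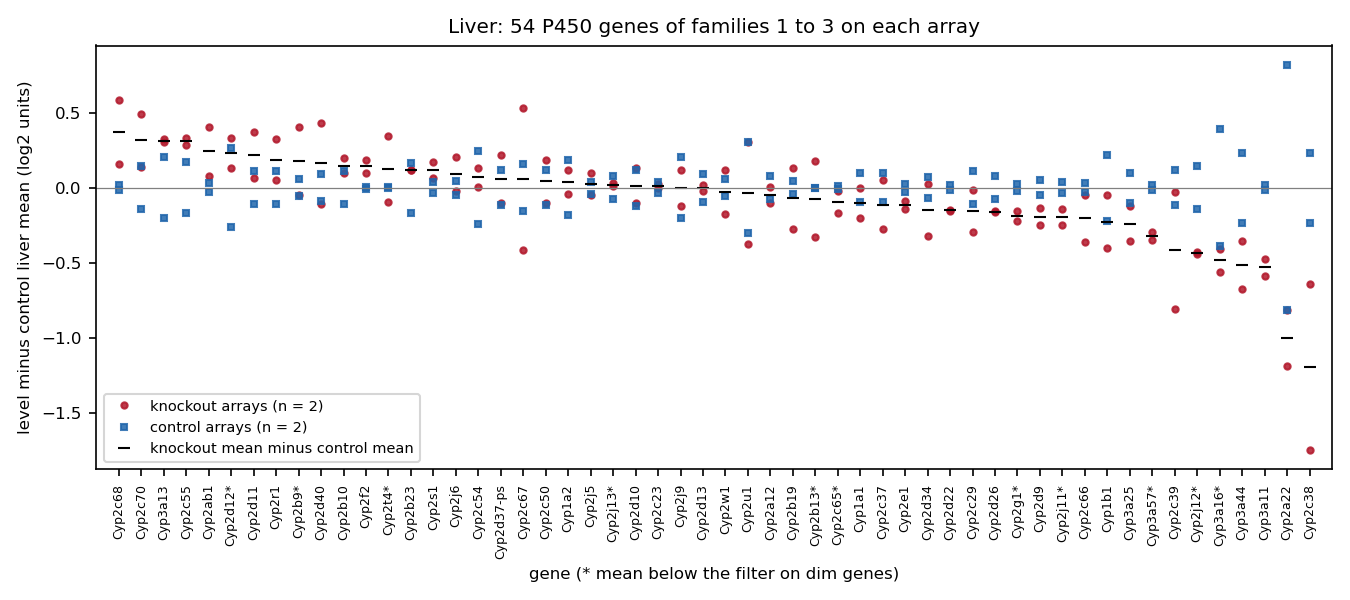
Level of each of the 54 genes on each liver array minus the control liver mean, in log2 units, with knockout arrays as circles, control arrays as squares and the mean difference as a dash. Most means lie within 0.25 of 0, and Cyp2c38, Cyp2a22, Cyp3a11 and Cyp3a44 form the low end.

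The CYP3A genes, the steroid and drug hydroxylases controlled by PXR, were lower in knockout liver in 5 of 6 cases, with Cyp3a13 the exception; 4 of the 6 passed the filter, 3 lower and 1 higher. Cyp3a11, the main inducible CYP3A enzyme of mouse liver, was at 11.23 and 11.12 in Prkch-/-Apoe-/- livers, against 11.72 and 11.70 in Apoe-/- livers. Both knockout arrays lay below both controls. Cyp3a11 averaged 11.18 ± 0.08 in knockout and 11.71 ± 0.02 in control livers (SD, n = 2 each), a difference of -0.53 ± 0.13 (SE; limma adjusted p = 0.828), 1.44-fold lower.

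Cyp3a44, one of the female-predominant genes, was at 6.89 and 6.57 in knockout livers, against 7.48 and 7.01 in control livers, again without overlap, a difference of -0.52 ± 0.19 (limma adjusted p = 1.00). Cyp3a25 was at 12.31 and 12.08, against 12.53 and 12.33, a difference of -0.24 ± 0.15, with little room between the genotypes. Below the filter, Cyp3a16 was at 3.53 and 3.37, against 4.33 and 3.54, and Cyp3a57 at 3.44 and 3.39, against 3.75 and 3.72. Both dim genes also had both knockout arrays below both controls, by a narrow margin for Cyp3a16. Of the 4 CYP3A genes past the filter, 3 were lower and 1 higher without overlap, against 18% and 11.8% of all genes. A difference below 0 was found in 57.1% of all genes.

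Cyp3a13, which is also expressed in intestine, ran the other way. It was at 10.19 and 10.21 in knockout livers, against 10.09 and 9.68 in control livers, a difference of 0.31 ± 0.16 (limma adjusted p = 1.00). On chromosome 5, Cyp3a57, Cyp3a16, Cyp3a44, Cyp3a11 and Cyp3a25 follow each other with no protein-coding gene from outside the P450 families between them, whereas 121 protein-coding genes lie between Cyp3a13 and Cyp3a57. The 5 clustered genes are the 5 with a lower knockout mean. Similar genes can share probe binding, which was not tested, so the clustered genes may not all be separate measurements. Sequence identity was computed for promoters only. Control liver means were 12.43 for Cyp3a25 and 3.74 for Cyp3a57, and 7.24 for Cyp3a44 and 3.93 for Cyp3a16.

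The CYP2C subfamily, with retinoid, steroid and arachidonic acid hydroxylases and epoxygenases, had members at both ends of the range. Of its 12 members past the filter 7 were higher and 5 lower, with a median of 0.03. Cyp2c38 had the largest difference of all members. It was at 7.78 and 8.88 in knockout livers, against 9.76 and 9.29 in control livers, with no overlap but with the knockout arrays farther apart than the controls. Its mean was 8.33 ± 0.78 in knockout and 9.53 ± 0.33 in control livers (SD, n = 2 each), a difference of -1.20 ± 0.32 (SE; limma adjusted p = 0.989), 2.29-fold lower. When 1 array was left out, the difference lay between -1.75 and -0.64. It was -1.75 without knockout replicate 2, a fit that keeps only the lower of the 2 knockout arrays. With no array left out, the smallest limma adjusted p over the settings tried was 0.123.

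Its neighbour Cyp2c39, a retinoic acid hydroxylase, was at 5.63 and 6.41 in knockout livers, against 6.55 and 6.32 in control livers. Knockout replicate 1 was the low array for Cyp2c39 as for Cyp2c38, and replicate 2 lay within the controls. Cyp2c68 was at 9.76 and 10.19, against 9.59 and 9.62, a difference of 0.37 ± 0.17 (limma adjusted p = 1.00). Cyp2c55, inducible through CAR and PXR, was at 5.47 and 5.42, against 5.31 and 4.97, and did not overlap either. Cyp2c70 differed by 0.32 ± 0.17, with both genotypes at 12.71 on replicate 2. Cyp2c29, the CAR-responsive gene, was at 12.51 and 12.23 in knockout livers, against 12.64 and 12.42 in control livers, and overlapped. Cyp2c66 was at 5.47 and 5.78 in knockout livers, against 5.80 and 5.87 in control livers, lower without overlap. Cyp2c23, an epoxygenase, was at 11.97 and 11.99 in knockout livers, against 12.00 and 11.93 in control livers, and overlapped. Cyp2c50, Cyp2c54 and Cyp2c67 differed by between 0.04 and 0.07.

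**Figure D3:**
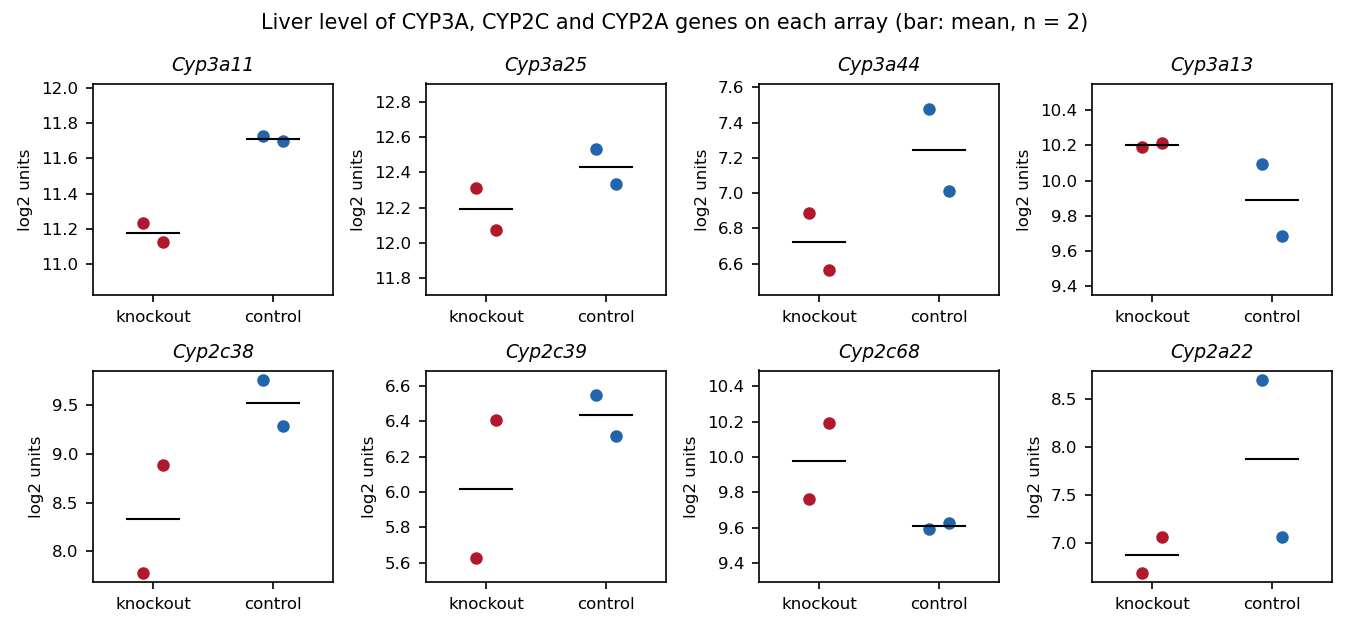
Liver level of 4 CYP3A genes, 3 CYP2C genes and Cyp2a22 on each array, in log2 units, knockout on the left and control on the right of each panel, with a bar at the mean of 2 arrays; each panel has its own axis range. Both knockout arrays lie below both control arrays for Cyp3a11, Cyp3a25, Cyp3a44 and Cyp2c38 and above them for Cyp3a13 and Cyp2c68, and the genotypes overlap for Cyp2c39 and Cyp2a22.

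Cyp2a22 had the next largest difference, and it rested on 1 array. It was at 6.69 and 7.06 in knockout livers, against 8.69 and 7.06 in control livers, so the genotypes overlapped. The difference was -1.0 ± 0.44 (limma adjusted p = 1.00). Without control replicate 2 it was -1.82 with a limma adjusted p of 0.0463, the single control array, which is the high one, being taken to vary like the knockouts, and without control replicate 1 it was -0.18. The adjacent gene Cyp2a12, a bile acid hydroxylase, was at 11.26 and 11.37 in knockout livers, against 11.44 and 11.29 in control livers.

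The CYP1 genes, targets of the aryl hydrocarbon receptor, differed little. Cyp1a2, the constitutive CYP1A of hepatocytes, was at 11.53 and 11.38 in knockout livers, against 11.24 and 11.61 in control livers. Cyp1a1, which is low in liver without an inducer, was at 5.31 and 5.11, against 5.40 and 5.21, and Cyp1b1, the extrahepatic form, was at 5.65 and 5.30, against 5.48 and 5.92. All 3 overlapped between genotypes. Of 5 receptor targets from outside the P450s that passed the filter, 1 was higher and 4 lower, none called; Lpcat2 was at 7.31 and 7.38 in knockout livers, against 7.74 and 7.75 in control livers (limma adjusted p = 1.00).

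In CYP2B, Cyp2b10, the standard reporter gene of CAR activation, was at 5.19 and 5.10 in knockout livers, against 5.11 and 4.89 in control livers, below the array median on all 4. The 9 CYP2D members past the filter lay within a narrow band: 4 were higher and 5 lower, from -0.19 for Cyp2d9, the male-predominant testosterone hydroxylase, to 0.22 for Cyp2d11. Cyp2d9, Cyp2d22 and Cyp2d26 were lower without overlap, with differences of -0.19, -0.15 and -0.16. In CYP2J, Cyp2j5 and Cyp2j6 differed by 0.02 and 0.09, and the dim gene Cyp2j12, below the filter, was at 3.53 and 3.52, against 4.10 and 3.81. Cyp2d11 was at 5.72 and 5.41 in knockout livers, against 5.24 and 5.45 in control livers, and Cyp2d40 at 9.61 and 9.07, against 9.26 and 9.08; both overlapped.

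Of single-member subfamilies, Cyp2e1 differed by -0.12 ± 0.13 and Cyp2f2 by 0.14 ± 0.13 (SE), each without overlap and neither called (limma adjusted p = 1.00 for both). Cyp2r1, the vitamin D 25-hydroxylase, was at 7.54 and 7.27 in knockout livers, against 7.33 and 7.11 in control livers, and overlapped. Cyp2ab1 was at 5.39 and 5.06 in knockout livers, against 4.95 and 5.02 in control livers, with both knockout arrays above both controls.

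Genes that act with the P450s did not pass the test either. Of 12 xenobiotic receptor and partner genes past the filter, 3 were higher and 9 lower (median -0.12), against 57.1% of all genes below 0. Of the 12, 4 were lower without overlap, against 18% of all genes. Nr1i2, which encodes PXR, was at 9.33 and 9.14 in knockout livers, against 9.53 and 9.53 in control livers (limma adjusted p = 1.00). Nr0b2, the small heterodimer partner, was at 8.28 and 8.93, against 9.11 and 9.47, a difference of -0.68 (limma adjusted p = 1.00). The knockout arrays lay below both controls for these 2 genes and for Hnf4a, at 10.45 and 10.86, against 10.91 and 11.05. Nr1i3, which encodes CAR, was at 9.84 and 10.01, against 10.53 and 10.01, and overlapped.

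Of 14 listed electron transfer and haem genes, 12 were past the filter. Of these 12, 3 were higher and 9 lower (median -0.11), against 57.1% of all genes below 0. P450 oxidoreductase was not among the 12. Hmox1, the haem-degrading oxygenase, was at 8.60 and 8.74 in knockout livers, against 9.25 and 9.37 in control livers, a difference of -0.64 ± 0.13 (limma adjusted p = 0.658). Alas1, which limits haem synthesis, was at 12.19 and 11.74, against 12.90 and 12.10, and overlapped. Both arrays of the knockout lay lower for Hmox1, which is also a gene of iron-recycling macrophages.

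**Figure D4:**
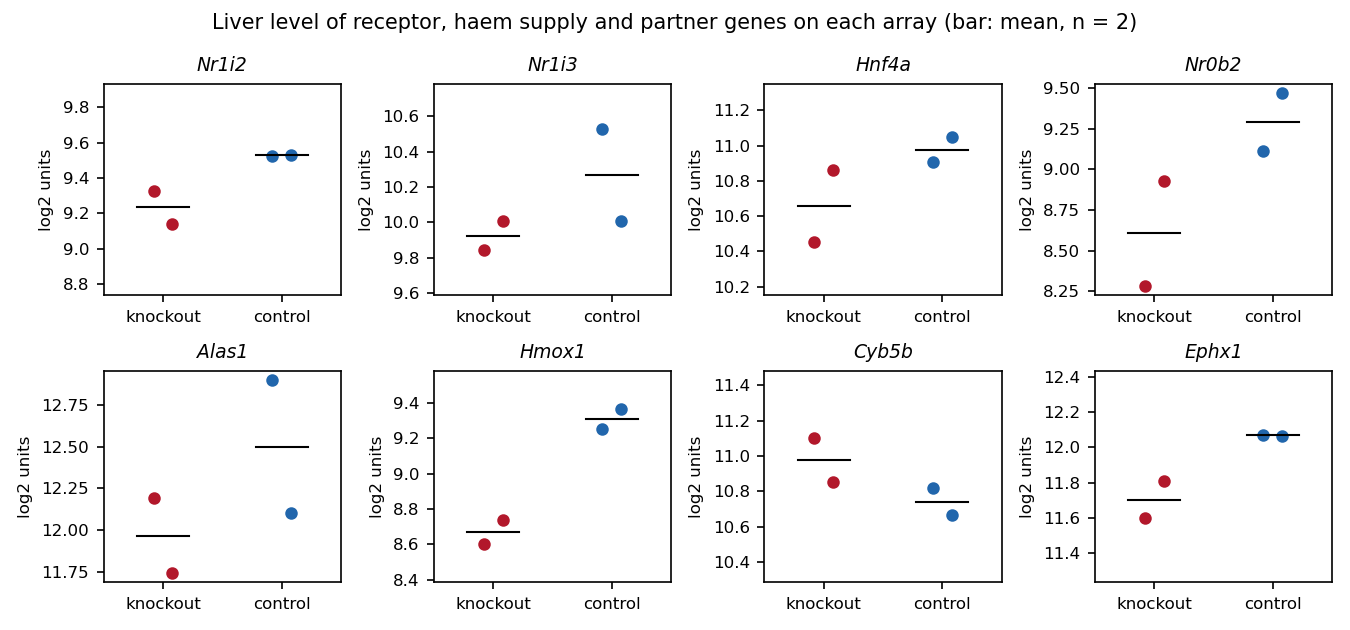
Liver level of 8 receptor, haem, cytochrome b5 and epoxide hydrolase genes on each array, in log2 units, knockout on the left and control on the right, with a bar at the mean of 2 arrays; each panel has its own axis range. Nr1i2, Hnf4a, Nr0b2, Hmox1 and Ephx1 have both knockout arrays below both control arrays, and Cyb5b has them above.

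Among 42 conjugation and transport genes past the filter 15 were higher and 27 lower (median -0.09). The uptake transporter gene Slco1a4 was at 9.01 and 9.34 in knockout livers, against 8.42 and 8.41 in control livers (difference 0.76; limma adjusted p = 0.654), and Slco1a1 differed by 0.51. The bile acid exporter gene Abcc3 was at 9.91 and 10.63, against 11.11 and 10.93, a difference of -0.75, and Ephx1, the microsomal epoxide hydrolase, differed by -0.36 ± 0.14. None was called. A list of epoxide hydrolases and P450s of other families, with the eicosanoid genes Alox5 and Ptgs2, had 9 of 10 genes lower (median -0.09).

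Many P450 genes are transcribed mainly near the central vein and follow the sex of the animal, so marker lists of both kinds were read beside them. Of 15 pericentral genes from outside the members 4 were higher and 11 lower (median -0.11), and of 12 periportal genes 11 were higher and 1 lower (median 0.16). The periportal cadherin Cdh1 was at 8.87 and 8.70 in knockout livers, against 7.93 and 8.06 in control livers (difference 0.79; limma adjusted p = 0.573). The pericentral gene Lgr5 was at 6.50 and 6.65, against 6.91 and 6.99 (difference -0.37), whereas Avpr1a, also pericentral, differed by 0.77. Male-biased genes were higher in 8 of 12 cases (median 0.16), with Cyp4a12a at -0.52 and Cyp4a12b at -0.60, and female-biased genes from outside the members were lower in 6 of 8 (median -0.14). Growth hormone signalling genes were higher in 6 of 10 (median 0.007). Against the control mean, list medians on knockout replicates 1 and 2 were -0.22 and 0.04 for pericentral and 0.07 and 0.25 for periportal genes. They were 0.29 and 0.01 for male-biased genes, and -0.26 and 0.14 for the 11 measured female-biased genes without the filter. On control replicates 1 and 2 the male-biased medians were -0.14 and 0.14. The pericentral and female-biased medians thus differed in sign between the knockout arrays. The members of these lists that passed the test numbered 0.

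Cell type markers were read beside these values, and none was called. Of 12 hepatocyte markers 11 were higher (median 0.07), with a list median level of 13.53 and 13.68 in knockout livers, against 13.45 and 13.59 in control livers. Of 10 macrophage markers 9 were lower (median -0.23), with list medians of 8.17 and 8.18, against 8.26 and 8.50; Cd68 was at 8.71 and 9.12, against 9.58 and 9.94. Of 8 Kupffer cell markers 7 were lower (median -0.30), with list medians of 9.04 and 8.42, against 8.72 and 9.07. Against the control mean, the Kupffer medians were 0.14 and -0.58 on knockout replicates 1 and 2, so they differed in sign. Of the 8, 1 was lower without overlap, against 18% of all genes. The part of the cell mixture in the P450 differences was not tested.

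In peritoneal macrophages most P450 genes of families 1 to 3 were dim. No member had a control mean over the 90th percentile of all probe sets, 37 of the 54 lay under the 30th, and 2, Cyp2ab1 and Cyp2d40, exceeded the array median on all 6 arrays. Cyp3a11, Cyp2c38, Cyp2c68 and Cyp2a22 averaged 2.66 ± 0.38, 3.20 ± 0.38, 3.23 ± 0.39 and 3.45 ± 0.40 in control macrophages (SD, n = 3), within the lowest 5% of probe sets. Cyp2ab1 was at 7.55, 9.59 and 7.46 in knockout macrophages, against 8.13, 8.38 and 7.39 in control macrophages. Cyp2d40 was at 7.07, 6.71 and 6.71, against 7.15, 7.25 and 6.71. Cyp1b1 was at 7.93, 6.50 and 7.31, against 7.43, 6.73 and 7.76. All 3 overlapped between genotypes.

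Knockout replicate 2 was the highest array for Cyp2ab1. On that array the median of 7 B and T cell markers lay 1.24 above the control mean, against -0.55 and -0.24 on the other knockout arrays and between -0.27 and 0.36 on the controls. Other lists also differed on knockout replicate 2. The median of macrophage markers was 0.35 against the control mean. For mesothelium and stromal markers it was -0.65, and -0.48 on knockout replicate 3. The part of lymphocyte RNA, or of any other cell type, in the level of Cyp2ab1 was not tested. Within set 1 the knockout minus control difference of Cyp2ab1 was -0.70 and within set 2 it was 1.13; for Cyp1b1 they were 0.85 and -0.86, and for Cyp2d40 -0.14 and 0.

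Of the 17 members past the filter in macrophages, 0 were called between the genotypes, beside 0 of 15039 genes (0%). At an unadjusted p under 0.05 there were 0 members, against 0.698% of all genes (0.12% higher, 0.578% lower), and in 0 members did the genotypes not overlap, against 2.25% (0.652% higher, 1.6% lower). A gene with an identical value on a knockout and a control array of set 2 cannot count as without overlap. This held for all of the 17 except Cyp1b1 and Cyp2ab1, so for them that count was fixed by the ties. A difference of at least 0.25 in size was seen in 1 member, Cyp2d26 at -0.27 (5.88%, against 6.6%). Within set 1 the difference of Cyp2d26 was -0.03 and within set 2 it was 0. The member with the smallest p was Cyp2j6 (difference -0.21 ± 0.11, limma adjusted p = 1.00). Of the 17, 4 were higher and 13 lower (76.5% below 0, against 63.5% of all genes), with a median of -0.07 beside -0.04 over all genes. Over all 54 members, with no filter, medians were higher on the arrays of set 1 than on those of set 2, in both genotypes. Against the control mean they were 0.10 on knockout replicate 1 and 0.09 and -0.002 on control replicates 1 and 2. On the 3 arrays of set 2 they were -0.12, -0.11 and -0.11.

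**Figure D5:**
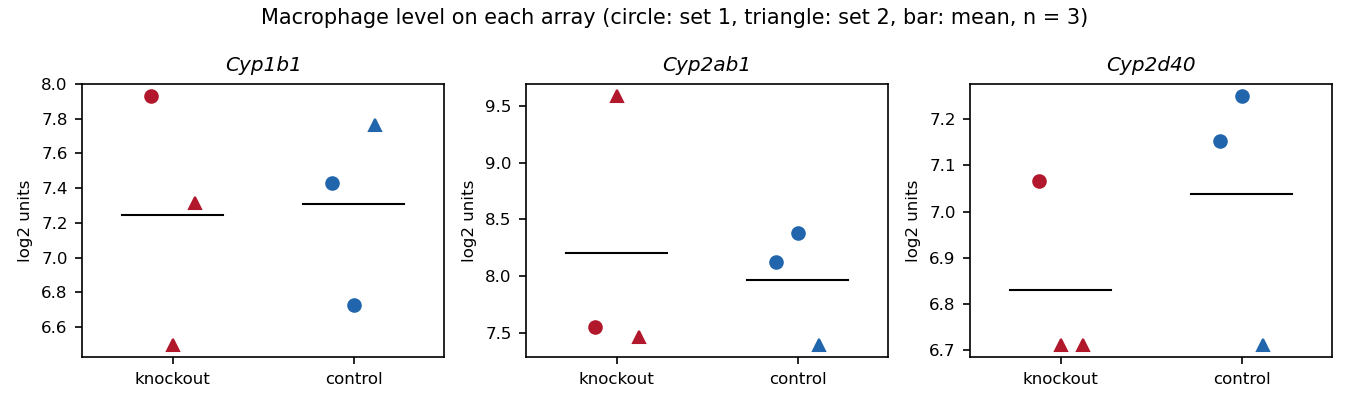
Macrophage level of Cyp1b1, Cyp2ab1 and Cyp2d40 on each array, in log2 units, knockout on the left and control on the right, with a bar at the mean of 3 arrays. Circles are arrays of set 1 and triangles arrays of set 2; the genotypes overlap in each panel, and the 3 triangles of Cyp2d40 stand at the same value.

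Control liver was set against control macrophages after subtracting each array's median. Tissue, sex, diet, age and processing differ together in this contrast and cannot be told apart. Among all 54 members without a filter, 35 were called higher in liver and 1 lower, at a limma adjusted p under 0.05 and a difference of at least 1. The share of all genes called without a filter is not given here, so this count has no comparison. Of the 43 above the filter in either tissue, 33 were called higher (76.7%), against 12.3% of 16386 genes, and 1 lower (2.33%), against 15.3%; members that are bright in liver passed that filter through liver, so this share is a description.

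Measured levels differed by 9.83 ± 0.17 (SE) for Cyp3a11, 9.25 ± 0.13 for Cyp2e1, 9.04 ± 0.15 for Cyp2c29 and 6.98 ± 0.14 for Cyp1a2. The macrophage means of these 4 genes lay under the 30th percentile of all probe sets, so these are differences of measured signal, limited by the dim end of the scale. Smaller differences were found for Cyp2j6 (3.07 ± 0.11), Cyp2u1, a fatty acid hydroxylase (3.11 ± 0.19), and Cyp2r1 (1.73 ± 0.11). For Cyp2b10 the difference was 0.42 ± 0.14 and for Cyp2s1, an extrahepatic form, 0.39 ± 0.11, both under 1 unit. Cyp2ab1 was lower in liver, with a difference of -2.20 ± 0.21 (limma adjusted p = 1.5e-05). Cyp1b1 differed by -0.83 ± 0.29 (limma adjusted p = 0.0285), a size under the minimum of 1, and without 1 of the 5 arrays by between -1.13 and -0.56, with adjusted p up to 0.208. With the values as deposited, without subtracting medians, all genes shifted by a median of -0.78, Cyp1b1 then also passed, and 15.6% of all called genes were higher in liver, against 44.6% after subtraction.

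The genotype difference in liver minus that in macrophages was tested over all 10 arrays. Of 43 members 0 passed, beside 0 of 16363 genes (0%), and at an unadjusted p under 0.05 there was 1 member, Cyp2a22 (2.33%), against 2.11% of all genes. For Cyp2a22 the difference of differences was -1.39 (limma adjusted p = 1.00).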

How the data were processed

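Total RNA of liver and elicited macrophages was hybridised to Affymetrix Mouse Gene 1.0 ST arrays. Per the submitters' processing notes, the authors used Affymetrix Expression Console, whose version and algorithm, like any genome build, the sources used here do not give. Values, as deposited, were read as log2 probe set levels from their range and were not normalized again. Names came from the platform annotation (21789 with 1 symbol, 1621 with several, 12147 with none), and 21698 symbols were found in RefSeq with 0 updated. A gene was represented by its probe set with the highest mean, and a gene was kept where that mean reached the 30th percentile over all probe sets. Differences were tested with limma 3.58.1 (lmFit and eBayes, two-sided) in R 4.3.3, per tissue, with Benjamini-Hochberg adjustment over all genes tested; the liver against macrophage fit used values minus each array's median, and 1 fit over 10 arrays gave the difference of differences. The fits were tested on simulated data. Same-numbered arrays were not treated as pairs: the labels tie the numbers to no shared animal, litter or batch (in macrophages to a shared age), and the correlation of deviations was 0.11 in liver and 0.30, -0.02 and 0.34 in macrophages. Promoters were aligned with Biopython 1.88 (match 1, mismatch -1, gap opening -3, gap extension -1).

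The members, gene lists and tests were chosen with earlier results of these data known. Every member could be counted, and values on every array were given for members at an unadjusted p under 0.05 in liver, for the 8 largest differences in each direction, for the 8 brightest in control liver, for those above the median on all macrophage arrays, and for 7 standard P450 genes. From each gene list up to 4 genes with the smallest p in liver were eligible. Other members were named after their values were seen. The 16 gene lists held receptors, electron transfer, conjugation, sex bias, zonation and cell type markers. Alternatives covered normalization, the filter, the choice of probe set, the variance prior, the arrays in the fit, replicate and array-set blocks and leaving out single arrays. The aorta arrays were left out because they are on another platform.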

Additional observations from a re-analysis of the deposited data

How the results depend on the processing

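In liver 1 gene was called; 0 were called with quantile normalization, with no filter on dim genes, with a trended prior or with all 10 arrays in 1 fit, 2 with each probe set tested on its own, and 23 with the replicate block, none of them a P450 member. Same-numbered liver arrays share only a number and same-numbered macrophage arrays a number and an age, so the block is no paired design; it called 0 genes in macrophages. Leaving out 1 liver array gave between 0 and 39 called genes (39 without knockout replicate 2, 3 without control replicate 2) and between 0 and 1 members: Cyp2c38 without knockout replicate 2 and Cyp2a22 without control replicate 2. Members at an unadjusted p under 0.05 and lower numbered 3, but 5 with no filter and 1 with all 10 arrays. Those higher numbered 0, but 1 with quantile normalization or the replicate block, and some fits without 1 array also had higher members. Shares of all genes at this threshold were not counted for these alternatives. The sign of small liver differences turned when 1 array was left out: Cyp1a2 ranged from -0.15 to 0.22, Cyp2c23 from -0.026 to 0.048, Cyp2d40 from -0.11 to 0.43 and Cyp2j5 from -0.048 to 0.096. Cyp3a11 stayed between -0.59 and -0.48 (adjusted p between 0.258 and 1.00) and Cyp3a44 between -0.75 and -0.28. The member median ranged from -0.03 to 0.003 in liver and from -0.15 to 0.009 in macrophages. In macrophages, without 1 array, Cyp1b1 ranged from -0.40 to 0.31 and Cyp2ab1 from -0.46 to 0.61, and no gene was called under any setting. Between tissues, 7550 genes were called with the values as deposited, against 4520 after centring, and 2 members were lower in liver, against 1; leaving out 1 array gave between 1 and 2, and Cyp1b1 then ranged from -1.13 to -0.56. For the difference of differences between 0 and 1 genes were called when 1 array was left out. The causes were not tested. Among the differences of single genes over all settings, 323 kept their direction and side of the threshold, 12 changed sign, 2 passed a threshold they had missed and 4 missed one they had passed. With 2 liver arrays per genotype, a p that misses the threshold does not show equal levels.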
